A study of Mus musculus with 38 samples.

Results

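The genes of MHC class I antigen processing and presentation were followed in tumor cells of the MMTV-PyMT mouse mammary carcinoma model. The members were B2m, H2-K1, H2-D1, Tap1, Tap2, Tapbp, Psmb8, Psmb9, Psmb10 and Psme1, taken as the probes that carry one of these names in the array files. All 10 were found, on 17 of the 41174 probes of the array, and they are 10 of its 27962 gene names. Cells were profiled on 38 Agilent arrays that compare each sample with a common mouse reference RNA, so each value is a log2 ratio of sample to reference, which allows 1 gene to be compared between samples but not the levels of 2 genes.

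In this model the MMTV promoter drives Polyoma middle T antigen in mammary epithelium, and an actin promoter, which is not limited to epithelium, drives GFP. Hyperplasias of 3-week-old donors with both transgenes (MMTV-PyMT;actin-GFP) were transplanted into cleared fat pads of 3-week-old FVB/n females, whose own cells carry no GFP, and GFP+ cells were sorted from every lesion. For the chemotherapy experiment, hosts received docetaxel at 25 mg/kg, doxorubicin at 5 mg/kg and cyclophosphamide at 120 mg/kg (TAC) every 21 days from 8 weeks after transplantation. Tumors were taken without treatment (untreated, labelled Control, n = 6), 10 days after 1 dose (residual, labelled Regressed tumor, n = 6) and 10 days after 4 doses (relapsed, labelled Resistant tumor, n = 4). Relapsed tumors were thus also older than residual tumors, so the number of doses and tumor age cannot be told apart. The age of the untreated tumors is not given. For the progression experiment, cells came from 5-week outgrowths (adenoma, n = 5), 18-week outgrowths (carcinoma, n = 6), lungs of pooled mice bearing 18-week outgrowths (disseminated, n = 6) and lung metastases that grew after removal of the 18-week primary tumors (metastases, n = 5). RNA was amplified in 1 round for the chemotherapy arrays and in 2 rounds for the progression arrays, so the experiments were normalized and tested apart. The sort rests on GFP alone, so GFP+ donor cells other than tumor epithelium would be collected with it. RNA of host cells carried through the sort would be measured too. The labels do not say that every replicate came from a separate animal, and p-values below therefore describe the spread between these samples.

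Class I molecules display short peptides from a cell's own proteins to CD8 T cells. The proteasome cuts the proteins, and under interferon signaling its catalytic subunits are exchanged for Psmb8, Psmb9 and Psmb10, which form the immunoproteasome, while Psme1 is a subunit of the PA28 cap that opens the proteasome's core. Tap1 and Tap2 pump peptides into the endoplasmic reticulum, where Tapbp (tapasin) holds the transporter beside an empty class I molecule. There the peptide binds a heavy chain, H2-K1 or H2-D1, paired with the light chain B2m, and the complex moves to the cell surface. In many tumors these genes are expressed at low levels, and interferon gamma raises them through Irf1 and Nlrc5.

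Of the 10 genes, 7 lie on mouse chromosome 17 by their probe positions in build mm7 (the MHC), and Psmb9 and Tap1 are transcribed away from each other there. Shown are the promoter windows of B2m, Psmb9 and Tap1, which fell between residual and relapsed tumors, and of Psmb8, which alone held a GAS motif. Psmb10 also fell between these tumors, but its window held none of the motifs searched for below and is not shown. The windows are from RefSeq for build GRCm38.p6, which held 9 of the 10 genes (all but Tap2). The 250 bases before the start were searched on both strands for an IRF motif (GAAANNGAAA), for the interferon gamma-activated site, GAS (TTCNNNGAA), and for the CCAAT box (CCAAT). None of the 3 motifs contains another. Capitals mark every match. The first window is the 250 bases before B2m (chr2:122147437-122147686, + strand), the second the 225 bases between the starts of Psmb9 and Tap1 (chr17:34187331-34187555, + strand) and the third the 250 bases before Psmb8 (chr17:34197945-34198194, + strand).
B2m: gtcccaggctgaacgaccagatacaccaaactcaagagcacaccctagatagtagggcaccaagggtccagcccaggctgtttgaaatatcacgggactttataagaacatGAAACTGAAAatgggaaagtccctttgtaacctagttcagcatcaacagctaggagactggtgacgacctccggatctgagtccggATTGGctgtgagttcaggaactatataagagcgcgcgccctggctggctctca
Psmb9 and Tap1: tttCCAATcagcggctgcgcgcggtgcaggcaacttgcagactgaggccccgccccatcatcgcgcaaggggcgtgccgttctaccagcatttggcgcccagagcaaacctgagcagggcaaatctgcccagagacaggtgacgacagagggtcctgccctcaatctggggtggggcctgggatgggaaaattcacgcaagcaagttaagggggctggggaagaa
Psmb8: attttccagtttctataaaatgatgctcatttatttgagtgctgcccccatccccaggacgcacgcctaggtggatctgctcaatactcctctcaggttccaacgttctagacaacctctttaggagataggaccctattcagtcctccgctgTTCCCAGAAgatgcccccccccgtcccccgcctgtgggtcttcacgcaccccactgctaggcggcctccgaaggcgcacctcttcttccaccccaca

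An IRF match was present before B2m alone among the 9 genes, 139 to 130 bases before its start, against 2.98% of the 32851 promoter windows in the table. A GAS match was present before Psmb8 alone, against 7.02% of all windows. CCAAT boxes were more common, before 6 of the 9 genes (7 of their 10 windows) against 33.8% of all windows. They lay before B2m, H2-K1, H2-D1, Tapbp, Psmb9 and Tap1. Psmb9 and Tap1 share 1 box, counted for both, 8 to 4 bases before Psmb9 and 222 to 218 before Tap1. Psmb10 and Psme1 had none of these letters in the window. A match describes the letters only and is not evidence of binding. Variants of the motifs were not searched for, so a window without a match may still hold a related site.

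Every member was well above background in the sample channel of all 38 arrays, and no member spot was saturated. On each array 10 spots carried the same B2m probe and 10 the same H2-K1 probe, and their log2 ratios varied by a median SD of 0.06 and 0.04 within a chemotherapy array, far less than the samples of a group did. The H2-K1 gene values come from that H2-K1 probe, but the B2m gene values come from another B2m probe with 1 spot per array. Between 48.4% and 78.9% of gene spots were well above background per array. 1 carcinoma sample, replicate 6, was unlike the others of its group: its median correlation to them was 0.76, where theirs reached 0.96, and its macrophage marker level was 4.25, where the other 5 reached 0.67 at most. The members' calls against carcinomas are therefore also given without it, while values of other genes and of single probes include it. Disseminated replicates 6 and 4 and metastases replicate 4 also correlated weakly with their groups, at 0.71, 0.78 and 0.78. Without disseminated replicate 6, members called were 2 against adenoma, 0 against carcinoma and 4 for metastases against disseminated cells. Without disseminated replicate 4 they were 2, 2 and 2, and without metastases replicate 4 they were 5 against adenoma, 5 against carcinoma and 3 against disseminated cells. In bulk RNA, fewer cells of a kind and less RNA per cell cannot be told apart.

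The chemotherapy experiment asked what distinguishes tumor cells that persist after a first dose and those that grow again under repeated doses. All 10 members had their highest mean in residual tumors and their lowest in relapsed tumors. Between relapsed and residual tumors, B2m, Tap1, Psmb9 and Psmb10 fell by 2.49-fold to 3.61-fold. Neither treated group differed from untreated tumors by a called change in any member. Here a called change is one of at least 2-fold whose limma p, adjusted by Benjamini-Hochberg over all 27962 gene names, was under 0.05.

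**Figure D1:**
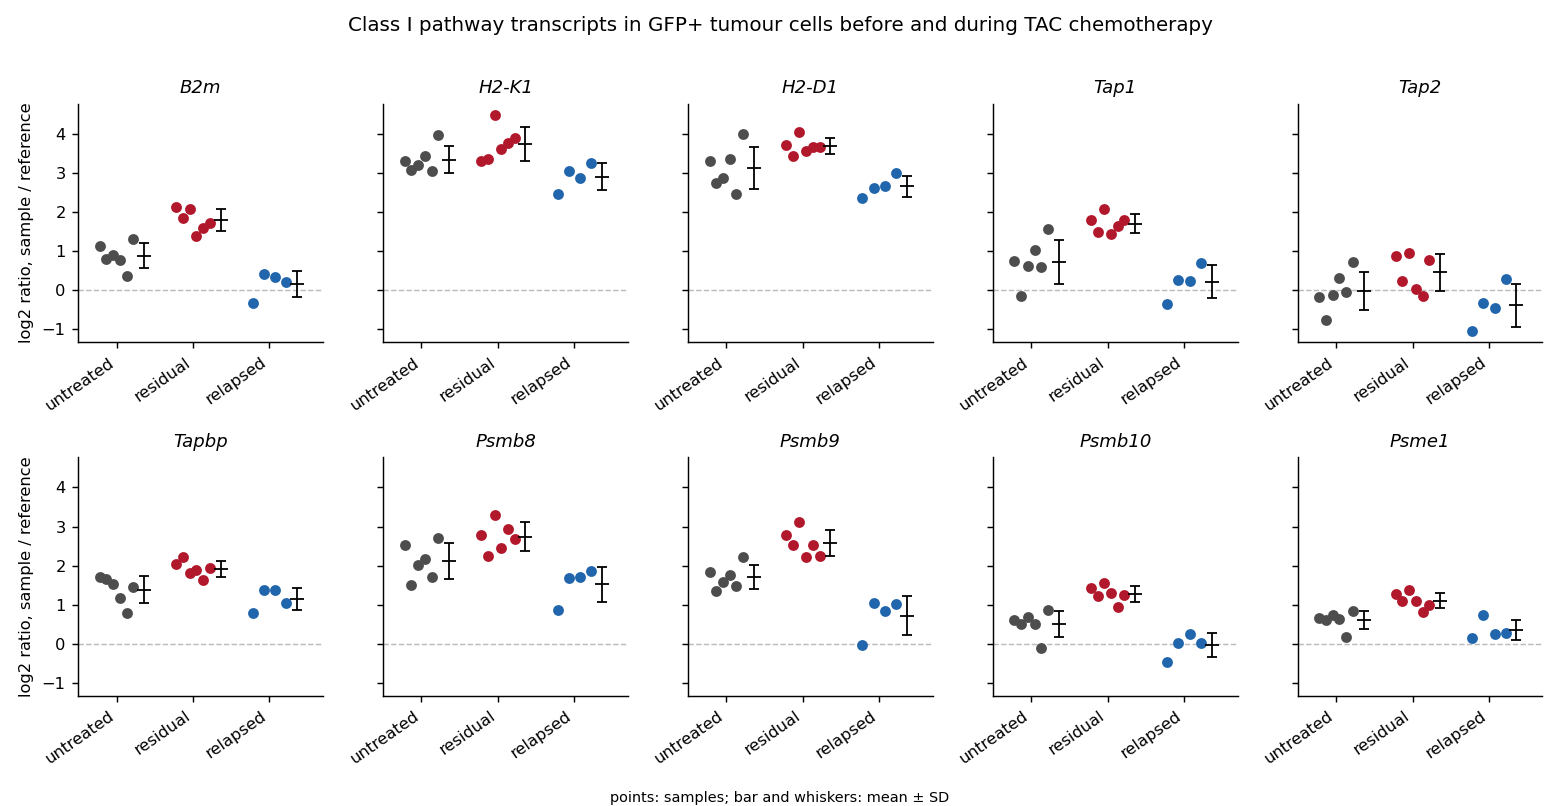
Log2 ratio of sample to reference (vertical axis) of each of the 10 genes in untreated (n = 6), residual (n = 6) and relapsed (n = 4) tumors; points are samples and bars with whiskers are the mean ± SD. In every panel the residual mean is the highest and the relapsed mean the lowest, and the B2m values of residual tumors, 1.39 to 2.13, lie above all others.

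B2m, the light chain that every classical class I complex needs, had log2 ratios of 0.36 to 1.31 in untreated tumors (median 0.86), 1.39 to 2.13 in residual tumors (median 1.77) and -0.34, 0.41, 0.33 and 0.22 in the relapsed tumors. The residual tumors lay above both other groups without overlap, while 1 untreated sample at 0.36 fell within the relapsed range. The group means were 0.88 ± 0.33 (SD, n = 6), 1.79 ± 0.28 (SD, n = 6) and 0.15 ± 0.34 (SD, n = 4). From residual to relapsed B2m fell by 1.64 on the log2 scale (SE 0.19, limma adjusted p = 0.00083).

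The heavy chains H2-K1 and H2-D1 present the peptide itself. H2-K1 read 3.06 to 3.98 in untreated tumors (median 3.25), 3.32 to 4.49 in residual tumors (median 3.69) and 2.46, 3.05, 2.88 and 3.26 in relapsed tumors. H2-D1 read 2.464 to 3.998 (median 3.09), 3.43 to 4.05 (median 3.67) and 2.35, 2.61, 2.67 and 3.01 in the same order. For both, every relapsed sample lay below every residual sample, but neither was called, with log2 changes of -0.83 for H2-K1 (SE 0.23, limma adjusted p = 0.23, though 1 of its other probes was called) and -1.03 for H2-D1 (SE 0.23, limma adjusted p = 0.097). The class I heavy chain genes are near-identical copies, and their alleles differ between mouse strains, so a probe may read more than the gene it is named for.

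Tap1, one chain of the peptide transporter, had log2 ratios of -0.15 to 1.56 in untreated tumors (median 0.68), 1.43 to 2.09 in residual tumors (median 1.71) and -0.34, 0.27, 0.24 and 0.68 in relapsed tumors. The relapsed and residual samples did not overlap, and Tap1 fell by 1.49 between them (SE 0.26, limma adjusted p = 0.016). Its partner Tap2 read -0.76 to 0.71, -0.14 to 0.95 and -1.06 to 0.30 in untreated, residual and relapsed tumors. Tap2 was the only member whose residual and relapsed samples overlapped, with a log2 change of -0.84 (SE 0.30, limma adjusted p = 0.45). Tapbp, the loading chaperone, read 1.62 to 2.22 in residual tumors and 0.79, 1.36, 1.37 and 1.04 in relapsed tumors, a log2 change of -0.78 (SE 0.17, limma adjusted p = 0.093).

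Of the immunoproteasome subunits, Psmb9 changed most. Its log2 ratios were 1.34 to 2.23 in untreated tumors (median 1.68), 2.23 to 3.11 in residual tumors (median 2.53) and -0.03, 1.04, 0.84 and 1.03 in relapsed tumors. The 3 groups did not overlap, since the highest untreated and the lowest residual value were 2.226 and 2.227, and Psmb9 fell by 1.85 from residual to relapsed (SE 0.22, limma adjusted p = 0.0013). Psmb10 read -0.10 to 0.86 (median 0.56), 0.93 to 1.55 (median 1.27) and -0.47, 0.02, 0.26 and 0.02. Residual tumors were above both other groups in every sample, and Psmb10 fell by 1.32 to the relapsed tumors (SE 0.17, limma adjusted p = 0.0016). Psmb8 read 2.24 to 3.30 in residual and 0.87, 1.68, 1.71 and 1.86 in relapsed tumors, a log2 change of -1.21 that did not pass (SE 0.25, limma adjusted p = 0.064). Psme1, the PA28 subunit, passed the p threshold with a change under 2-fold, -0.76 (SE 0.14, limma adjusted p = 0.028).

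Between relapsed and residual tumors 4 of 10 members were thus called, all lower, where 0.218% of all gene names were called in either direction. With the p threshold alone 5 of 10 passed, against 0.279% of all names. The relapsed samples lay below all residual samples for 9 of 10 members, against 0.994% of all names. The median log2 change of the members was -1.12 and that of all names 0.02.

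Between residual and untreated tumors all 10 members were higher on average, where 48.9% of all names were, with a median log2 change of 0.59 against -0.00 over all names. None was called, where 0.104% of all names were, and B2m alone passed the p threshold, at a change of 0.91 (SE 0.17, limma adjusted p = 0.037), against 0.204% of all names. B2m, Psmb9 and Psmb10 did not overlap between these groups, against 0.583% of all names that were higher without overlap. At an unadjusted p below 0.05, 8 of the 10 members were higher (H2-K1 and Tap2 were not), as were 1426 of all 27962 names.

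Between relapsed and untreated tumors all 10 members were lower on average, with a median log2 change of -0.49 against 0.01 over all names. None was called, where 0.0107% of all names were, and 4 were lower at an unadjusted p below 0.05, as were 865 of all 27962 names. Psmb9 was the only member with no overlap, at a log2 change of -0.98 (SE 0.22, limma adjusted p = 0.23), against 0.587% of all names that were lower without overlap. The 3 comparisons share their samples, so their directions are not independent of each other.

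The arrays of this experiment lay on 5 slides scanned on 1 day, and 3 slides held more than 1 group. On the slide with 1 residual and 2 relapsed tumors all 10 members were lower in the relapsed tumors, by 0.55 to 1.85 on the log2 scale. On the slide with 1 untreated and 2 residual tumors 9 of 10 members were higher in the residual tumors, at a median difference of 0.62. On the slide with 1 untreated and 2 relapsed tumors all 10 were lower in the relapsed tumors, at a median difference of -0.92. With slide as a fixed block, B2m no longer passed between residual and untreated tumors (log2 change 0.79, limma adjusted p = 0.64). B2m was still called between relapsed and residual tumors under it (log2 change -1.75, limma adjusted p = 0.033), while Psmb9 (-1.88, adjusted p = 0.058), Psmb10 (-1.45, adjusted p = 0.070) and Tap1 (-1.89, adjusted p = 0.070) were not. When each sample was left out in turn, B2m, Psmb9 and Psmb10 were called in 10 of 10 fits and Tap1 in 7, the exceptions being the fits without relapsed replicate 1 (adjusted p = 0.10), 2 (0.052) and 3 (0.053). With all 38 arrays normalized and fitted together, Psmb10 alone was called (-1.23, limma adjusted p = 0.0071).

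Other genes of the pathway gave a divided picture between relapsed and residual tumors. Among other class I and related heavy chains, 8 of the 14 measured were called, all lower: H2-Bl, H2-Q2, H2-Q7, H2-Q8, H2-Q10, H2-T10, H2-T22 and H2-T23, with the largest changes for H2-Bl (-1.71, limma adjusted p = 0.0060) and H2-Q8 (-1.63, limma adjusted p = 0.017). These probes share the doubt about near-identical copies. Of all names 0.218% were called between these groups. Of 7 other loading and trimming genes only Tapbpl, a tapasin relative that edits peptides, was called (log2 change -1.14, limma adjusted p = 0.0034). The constitutive 20S core, whose catalytic subunits the immunoproteasome subunits replace, had 0 of 14 subunits called (0 also at an unadjusted p below 0.05) and a median log2 change of 0.01, with Psmb5 and Psmb3, at 0.271 and 0.269, the farthest from 0.

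Among the regulators of class I genes, Irf1, a transcription factor induced by interferon, fell by 1.63 from residual to relapsed tumors (limma adjusted p = 0.0036). Between residual and untreated tumors Irf1 did not pass (log2 change 0.90, limma adjusted p = 0.12). Nlrc5 was not analysed here.

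Against untreated tumors none of these pathway lists had a called gene in limma, in either treated group, while at an unadjusted p below 0.05 the other heavy chains had 10 of 14 higher in residual and 9 of 14 lower in relapsed tumors (against 1426 and 865 of all 27962 names). Among the other heavy chains 12 of 14 were higher in residual tumors, at a median log2 change of 0.64, with H2-Bl at 0.98 and H2-Q8 at 0.89 the largest, and in relapsed tumors H2-Q8 and H2-Bl were the farthest from 0, at -0.74 and -0.73. Tapbpl was at 0.56 in residual and at -0.58 in relapsed tumors. Of the regulators, Socs1, an inhibitor of cytokine signaling, was the highest in residual tumors at 0.98, and Irf1 was the lowest in relapsed tumors at -0.73. The constitutive 20S subunits had a median log2 change of 0.05 in residual tumors.

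Markers of other cell types were read beside these results. Of the macrophage list, 14 of 18 genes were on the array, 12 of them in each group well above background in every sample, and the list's mean log2 ratio ran from -0.38 to 1.98 in untreated, -0.59 to 1.18 in residual and -0.72 to 0.63 in relapsed tumors. From residual to relapsed tumors 11 of its 14 genes were lower, at a median log2 change of -0.24, and none was called (1 was lower at an unadjusted p below 0.05). General leukocyte markers were lower for 6 of 6 genes, at a median of -0.37, with none called (2 were lower at an unadjusted p below 0.05). The list for T and NK cells (15 of 15 on the array) was ordered as the members were, at -0.29 to -0.04 in untreated, -0.23 to 0.15 in residual and -0.32 to -0.16 in relapsed tumors. None of its genes was called between relapsed and residual tumors (6 were lower at an unadjusted p below 0.05), 12 of 15 were lower, and 2, Cd3d (log2 change -0.95, limma adjusted p = 0.078) and Cd3g (-0.69, limma adjusted p = 0.052), did not overlap. Cd247, Gzma, Ncr1 and Prf1 were not well above background in any sample of either group. The part of such cells in the class I result was not tested. The mammary epithelium list was at 3.98 to 4.57 in residual and 4.06 to 4.53 in relapsed tumors.

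**Figure D2:**
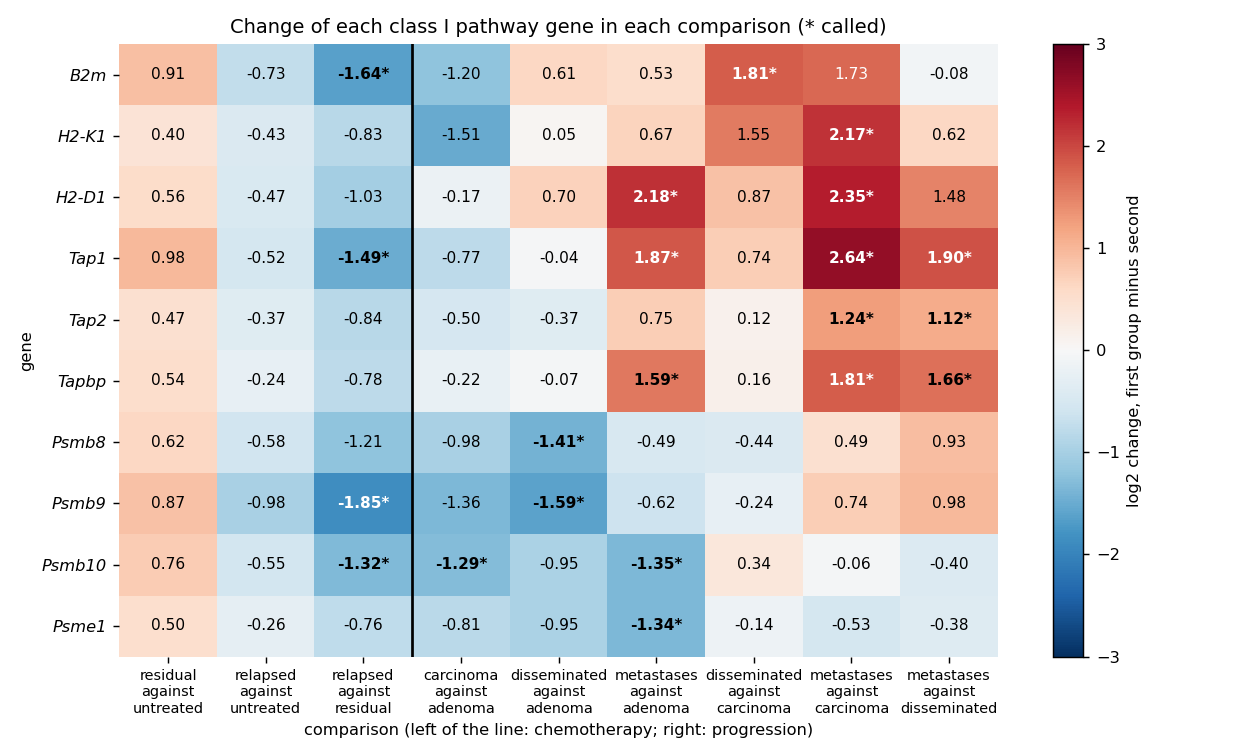
Log2 change of each of the 10 genes (rows) in each of the 9 comparisons (columns), first group minus second, with called changes starred. The 3 chemotherapy columns have 1 sign each, while in progression the called changes are positive for B2m, the heavy chains, Tap1, Tap2 and Tapbp and negative for Psmb8, Psmb9, Psmb10 and Psme1.

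The progression experiment compared GFP+ cells from early lesions to metastases. Here the members did not move as one. On the brightest probe of each gene, the heavy chains, the transporter and tapasin had their highest means in metastases. There the ratios of H2-K1, H2-D1, Tap1, Tap2 and Tapbp were 2.37-fold to 6.25-fold above carcinomas. From carcinomas to metastases the mean log2 signal of both channels rose for Tap1 (9.32 to 10.75) and Tap2 (9.23 to 10.20). It fell for H2-D1 (15.02 to 14.66) and H2-K1 (15.90 to 15.68) and was 15.13 and 15.16 for Tapbp. Part of the rise in ratio of H2-D1, H2-K1 and Tapbp thus lay in a lower signal of the reference, and its cause was not tested. Against adenomas and disseminated cells H2-K1 was not called. The other Tapbp probe was lowest in metastases (mean -0.24), and 1 other H2-K1 probe was highest in adenomas (0.98, metastases 0.58). Psmb10 and Psme1 were highest in adenomas and 2.55-fold and 2.53-fold lower in metastases. Samples of a group also differed far more than in the chemotherapy experiment, with a pooled SD of 0.62 against 0.29 for the members' mean log2 ratio.

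**Figure D3:**
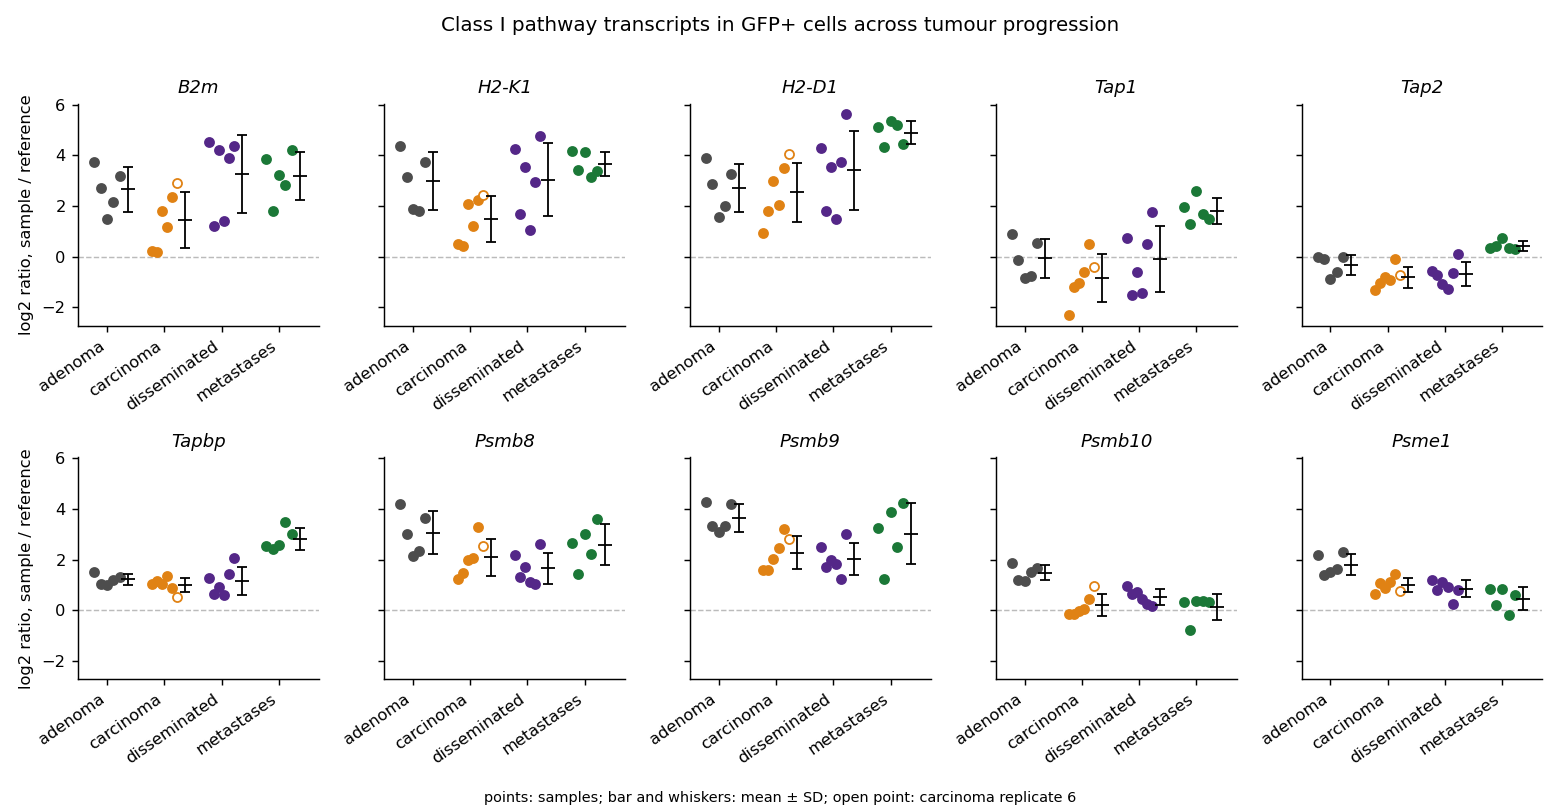
Log2 ratio of sample to reference (vertical axis) of each of the 10 genes in adenoma (n = 5), carcinoma (n = 6), disseminated cells (n = 6) and metastases (n = 5); points are samples, the open point is carcinoma replicate 6, and bars with whiskers are the mean ± SD. Metastases stand above all carcinomas for H2-K1, H2-D1, Tap1, Tap2 and Tapbp, and adenomas above all metastases for Psmb10 and Psme1.

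Between metastases and carcinomas, Tapbp read 2.52, 2.43, 2.58, 3.49 and 3.02 in the metastases and 0.53 to 1.34 in the carcinomas (median 1.04). The groups lay more than 1 apart on the log2 scale, and Tapbp rose by 1.81 (SE 0.23, limma adjusted p = 8.4e-05). Tap1 read 1.97, 1.31, 2.58, 1.69 and 1.48 against -2.32 to 0.51 (median -0.81), a rise of 2.64 (SE 0.55, limma adjusted p = 0.0025), the largest among the members. Tap2 read 0.32, 0.44, 0.74, 0.32 and 0.28 against -1.30 to -0.09 (median -0.87), a rise of 1.24 (SE 0.23, limma adjusted p = 0.0011). Both transporter chains were therefore above every carcinoma in every metastasis.

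H2-D1 read 5.11, 4.35, 5.37, 5.21 and 4.45 in metastases and 0.93 to 4.04 in carcinomas (median 2.53), a rise of 2.35 (SE 0.66, limma adjusted p = 0.015). H2-K1 read 4.18, 3.43, 4.13, 3.15 and 3.39 against 0.44 to 2.44 (median 1.64), a rise of 2.17 (SE 0.62, limma adjusted p = 0.016). Neither overlapped, and for H2-D1 carcinoma replicate 6 was the closest to the metastases. B2m read 3.86, 1.79, 3.21, 2.85 and 4.21 against 0.20 to 2.92, overlapped, and was not called (log2 change 1.73, SE 0.68, limma adjusted p = 0.073). Psmb8, Psmb9 and Psmb10 were not called either, with log2 changes of 0.49, 0.74 and -0.06, nor was Psme1 at -0.53 (limma adjusted p = 0.090).

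In all, 5 of 10 members were called between metastases and carcinomas, all higher, where 10.2% of all names were called, and the same 5 did not overlap, against 4.79% of all names. The median log2 change was 1.49 for the members and -0.05 for all names. Without carcinoma replicate 6 the same 5 and B2m were called (B2m log2 change 2.03, limma adjusted p = 0.034). These groups shared 3 slides of 1 scan day. H2-K1, H2-D1, Tap1, Tap2 and Tapbp were higher in metastases on each of the 3 slides, Tapbp by 1.55, 1.96 and 1.74 and Tap1 by 2.93, 3.50 and 1.25. B2m was higher by 3.03 and 2.33 on 2 slides and lower on the slide of carcinoma replicates 5 and 6 (-0.86). With slide as a fixed block 6 members were called, B2m among them (1.80, limma adjusted p = 0.022).

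Macrophage markers were also higher in metastases, with the list's mean log2 ratio at 3.04, 0.69, 3.65, 4.55 and 0.97 in the 5 samples and at -0.18 to 0.67 in 5 carcinomas and 4.25 in carcinoma replicate 6. All 14 measured genes of the list were well above background in every metastasis. General leukocyte markers ran from -1.92 to 2.36 in metastases and, without replicate 6, from -2.517 to -1.498 in carcinomas. Metastasis replicate 5, at a macrophage level of 0.97, had the highest levels of neutrophil (4.13), T and NK cell (1.37) and lung epithelium markers (3.33) of the metastases, where carcinomas other than replicate 6 reached 2.23 for neutrophils and 0.41 for T and NK cells. The part of these other cells, from host or donor, in the differences of the 5 called members and B2m was not tested. In metastasis replicate 4 the mammary epithelium list was at 0.20, where the other 4 metastases were at 2.90 to 4.03.

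Disseminated cells differed widely from sample to sample. B2m read 4.52, 1.21, 4.20, 1.41, 3.90 and 4.35 in replicates 1 to 6, H2-K1 4.23, 1.68, 3.54, 1.06, 2.94 and 4.77, and Tap1 0.72, -1.53, -0.59, -1.44, 0.51 and 1.75. Replicates 2 and 4 were the lowest for all 3 genes and shared a slide. Against carcinomas B2m rose by 1.81 (SE 0.65, limma adjusted p = 0.043), the only 1 of 10 members called where 11.8% of all names were. The groups overlapped, and the call was lost in 8 of 12 fits that left out a sample, without carcinoma replicates 1, 2, 3 or 4 or disseminated replicates 1, 3, 5 or 6, at adjusted p from 0.059 to 0.10. Without carcinoma replicate 6 B2m (2.11, limma adjusted p = 0.020) and H2-K1 (1.74, limma adjusted p = 0.037) were called. With all samples H2-K1 changed by 1.55 on its brightest probe and by -0.47 and -0.03 on its other probes, all uncalled. Slides and scan days separate these groups, and these cannot be told apart from the tissue. The macrophage list was at 3.33 to 4.59 and the neutrophil list at 3.01 to 5.87 in disseminated cells, where the carcinomas other than replicate 6 reached 0.67 and 2.23 at most, while mammary epithelium markers were at -0.01 to 2.98. Their part in the B2m result was not tested.

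Against adenomas, disseminated cells had less Psmb9 and Psmb8. Psmb9 read 4.27, 3.31, 3.10, 3.31 and 4.18 in adenomas and 1.22 to 3.01 in disseminated cells (median 1.90), without overlap, and fell by 1.59 (SE 0.46, limma adjusted p = 0.018). Psmb8 read 4.20, 3.01, 2.14, 2.34 and 3.64 against 1.05 to 2.60 (median 1.496), overlapped, and fell by 1.41 (SE 0.44, limma adjusted p = 0.027). The Psmb8 call was lost without adenoma replicate 1, adenoma replicate 5 or disseminated replicate 5, at adjusted p from 0.066 to 0.076. These were 2 of 10 members, where 10.7% of all names were called. Psmb10 and Psme1 passed the p threshold with changes just under 2-fold, -0.95 each (limma adjusted p = 0.0077 and 0.0054), and like Psmb9 they did not overlap, against 5.22% of all names that were lower without overlap. The median log2 change of the members was -0.22 and that of all names -0.01. H2-K1 changed by 0.05 on its brightest probe, but by -1.38 and -0.79 on its other probes. The first of these, A_52_P474242, was called over all probes (limma adjusted p = 0.014). Mammary epithelium markers were lower in disseminated cells for 11 of 11 genes (median log2 change -1.63), while 14 of 14 macrophage genes (12 called, median 3.65) and 7 of 7 neutrophil genes were higher, and the part of this shift in the result was not tested. Both groups shared 3 slides, and with slide as a fixed block Psmb8 (-1.30, limma adjusted p = 0.036) and Psmb9 (-1.53, limma adjusted p = 0.023) were again called.

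Carcinomas had lower means than adenomas for all 10 members, with a median log2 change of -0.89 against 0.07 over all names. Psmb10 alone was called: it read 1.86, 1.20, 1.15, 1.49 and 1.67 in adenomas and -0.17 to 0.95 in carcinomas (median 0.01), and fell by 1.29 (SE 0.23, limma adjusted p = 0.0018). That is 1 of 10 members where 3.38% of all names were called, and Psmb10 was also the only member without overlap, against 4.63% of all names that were lower without overlap. Psme1 passed the p threshold at -0.81 (SE 0.22, limma adjusted p = 0.022). For Psmb9 the change was -1.36 (SE 0.46, limma adjusted p = 0.057), and for H2-K1 -1.51 (SE 0.62, limma adjusted p = 0.12). B2m changed by -1.20 on its brightest probe and was not called (limma adjusted p = 0.26). Its other probes changed by -1.79, which was called over all probes (limma adjusted p = 0.020), and by -0.44, which was not. Carcinoma replicate 6 had the highest Psmb10 of its group, and without it Psmb10 was again called. Markers of other cells moved in both directions. In carcinomas 12 of 15 T and NK cell genes were lower (3 called), as were 8 of 8 fibroblast genes (2 called, median log2 change -1.08). Higher were 12 of 14 macrophage, 6 of 7 neutrophil and 6 of 7 endothelial genes (1 called), at medians of 0.54, 0.66 and 0.62. Of 5 erythroid genes 3 were higher (2 called). The part of these shifts in the result was not tested. No slide held both groups, so slide and scan day cannot be told apart from the stage.

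From adenomas to metastases the members divided. H2-D1 rose by 2.18 (SE 0.69, limma adjusted p = 0.022), Tap1 by 1.87 (SE 0.58, limma adjusted p = 0.020) and Tapbp, on 1 of its 2 probes, by 1.59 (SE 0.24, limma adjusted p = 0.00012), while Psmb10 fell by 1.35 (SE 0.24, limma adjusted p = 0.00044) and Psme1 fell by 1.34 (SE 0.23, limma adjusted p = 0.00029). The mean log2 signal of both channels fell from adenomas to metastases for H2-D1 (15.46 to 14.66) and Tapbp (15.53 to 15.16). For Tap1 it rose (9.81 to 10.75). Part of the rise in ratio for H2-D1 and Tapbp therefore lay in a lower signal of the reference, and its cause was not tested. Psmb10 read 0.33, -0.79, 0.37, 0.38 and 0.34 in the metastases and Psme1 0.84, 0.21, 0.84, -0.20 and 0.61, all below the lowest adenoma at 1.15 and 1.37. Of all 27962 names, 3320 were lower without overlap. The called changes of the members follow as a count. In all, 5 of 10 members were called, 3 higher and 2 lower, where 14.8% of all names were called. The H2-D1 and Tap1 calls were lost without metastases replicate 3 or adenoma replicates 3 or 4, at adjusted p from 0.050 to 0.065. Macrophage markers were higher in metastases for 14 of 14 genes (8 called, median log2 change 2.21) and general leukocyte markers for 6 of 6 (2 called). Fibroblast markers were lower for 8 of 8 genes (4 called, median -1.41). Mammary epithelium markers were higher for 7 of 11, at a median of 0.12. The part of these shifts in the 5 calls was not tested. Adenomas and metastases also lay on separate slides and days.

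Metastases and disseminated cells, both from the lung, differed in the loading genes. Tapbp rose by 1.66 (SE 0.23, limma adjusted p = 0.00026), Tap2 by 1.12 (SE 0.23, limma adjusted p = 0.0032) and Tap1 by 1.90 (SE 0.55, limma adjusted p = 0.027) in metastases. On the probe that stands for Tapbp the mean log2 signal of both channels was 15.12 in disseminated cells and 15.16 in metastases. Part of the Tapbp rise in ratio therefore lay in a lower reference signal. Tapbp and Tap2 did not overlap between the groups, against 2.2% of all names that were higher without overlap, and Tap1 did, because disseminated replicate 6 read 1.75. The 3 called members of 10 stand against 7.18% of all names called. The Tap1 call was lost in 5 of 11 fits that left out a sample, without disseminated replicates 2, 3 or 4 or metastases replicates 1 or 3, at adjusted p from 0.058 to 0.074. B2m had a log2 change of -0.08 (SE 0.68). Macrophage markers were lower in metastases than in disseminated cells for 13 of 14 genes and neutrophil markers for all 7, while mammary epithelium markers were higher for 10 of 11, at a median log2 change of 1.45. The part of these shifts in the 3 calls was not tested. Slide and scan day again cannot be told apart from the group.

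Among the other pathway genes, 5 of 14 heavy chains were called in metastases against carcinomas, all higher: H2-Q1, H2-Q2, H2-Q7, H2-Q10 and H2-T23, with H2-Q2 (log2 change 3.60, limma adjusted p = 0.0015) and H2-Q10 (3.53, limma adjusted p = 0.0023) the largest. Of all names 10.2% were called between these groups. Of 7 other loading and trimming genes, Lnpep, an aminopeptidase that trims peptides, rose by 1.43 (limma adjusted p = 0.045), and Calr, the chaperone calreticulin, fell by 1.07 (limma adjusted p = 0.0020). Of 14 constitutive proteasome subunits Psma6, Psmb2 and Psmb7 rose and Psmb3 fell, with the largest changes for Psma6 (1.96, limma adjusted p = 0.0065) and Psmb7 (1.39, limma adjusted p = 0.0025). Among the regulators Irf1, Jak2, Nfkb1 and Ifngr2 rose and Rfxank fell, with Irf1 at 1.4996 (limma adjusted p = 0.00018) and Jak2 at 1.60 (limma adjusted p = 0.013).

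In the other progression comparisons the 14 heavy chains gave 1 call in carcinomas against adenomas (H2-Bl, -1.53), where 3.38% of all names were called. Disseminated cells had 2 calls against adenomas (H2-Bl, -1.51, and H2-T10, -1.77), where 10.7% of all names were called. Against carcinomas they had 1 (H2-M3, 1.83), where 11.8% were. Metastases had 4 calls against adenomas (H2-Q2, H2-Q7, H2-Q10 and H2-T23, 2.05 to 3.34), where 14.8% of all names were called. Against disseminated cells they had 3 (H2-Q2, H2-Q10 and H2-T22, 1.63 to 2.32), where 7.18% were. Irf1 was 1.35 higher in metastases than in disseminated cells (limma adjusted p = 0.00061). The interferon receptor chain Ifnar1 and the kinase Jak2 were higher in disseminated cells than in carcinomas, by 1.68 (limma adjusted p = 0.0011) and 2.26 (limma adjusted p = 0.00078). Calr was lower in metastases than in adenomas by 2.33 and than in disseminated cells by 2.05, with limma adjusted p of 2.5e-06 and 4.0e-05.

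5 members were read by more than 1 probe, and the probes did not always give the same answer. In the chemotherapy experiment the 3 B2m probes changed by -1.64, -1.60 and -1.505 between relapsed and residual tumors, the 3 H2-K1 probes by -0.83, -1.52 and -1.30, the 2 Psmb8 probes by -1.21 and -1.12 and the 2 Tapbp probes by -0.78 and -0.68. For H2-K1 the probe with the brightest signal, which stands for the gene here, gave the smallest change and was not called, while A_52_P474242, at -1.52, was called over all probes (limma adjusted p = 0.023). In the progression experiment the other Tapbp probe (A_52_P684830, chr17:32004181-32004240, mm7) changed by -0.36 (SE 0.12) from carcinomas to metastases, opposite to the 1.81 of the probe that stands for the gene (A_51_P304500, chr17:32007107-32007166, mm7). That change, under 2-fold, passed the p threshold over all probes (limma adjusted p = 0.042). Against adenomas the same probe changed by -0.43 (limma adjusted p = 0.017) and against disseminated cells by -0.05 (limma adjusted p = 0.86). The probes are annotated to different Tapbp transcripts, and the rise of Tapbp in metastases in all 3 comparisons rests on 1 of them. H2-K1 changed by 2.17, 0.51 and 1.696 on its 3 probes and B2m by 1.73, 0.79 and 1.16. The other probe named H2-D1 is described in the array files as a thymus leukemia antigen transcript, and it changed by 0.36 where the H2-D1 probe changed by 2.35.

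**Figure D4:**
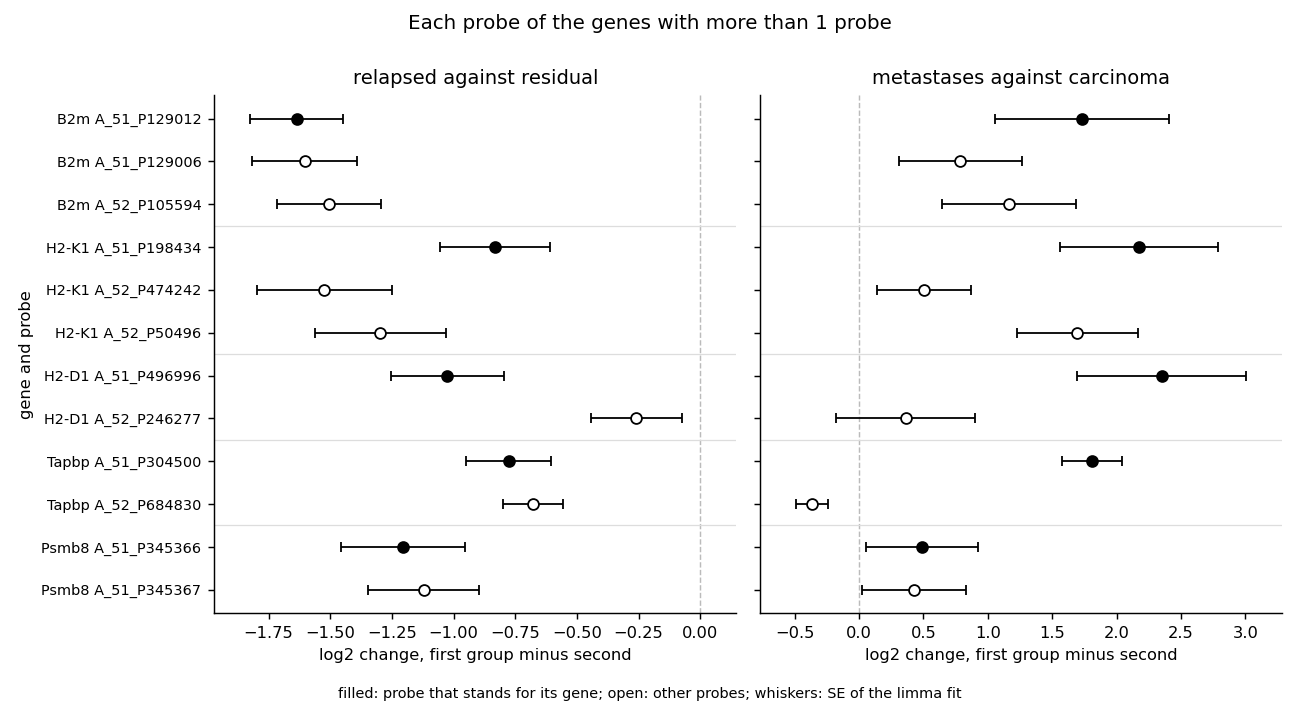
Log2 change (horizontal axis, whiskers SE of the limma fit) of every probe of the 5 genes with more than 1 probe, for relapsed against residual tumors (left) and metastases against carcinomas (right). On the left every probe is below 0, and on the right the second Tapbp probe, at -0.36, lies on the other side of 0 from the first, at 1.81.

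The members varied together across the chemotherapy samples. Over the 45 pairs of members and 16 arrays the median Pearson correlation was 0.87, from 0.46 for Tap2 and Tapbp to 0.97 for B2m and Psmb10. With group means subtracted the median was 0.67. Across the 22 progression arrays the median was 0.52, from -0.46 for Tapbp and Psme1 to 0.95 for Psmb8 and Psmb9. With group means subtracted it was 0.57, from -0.13 for Tapbp and Psme1 to 0.94 for H2-K1 and H2-D1. These values describe samples that share groups, slides and normalization.

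The gene names whose log2 ratios followed the mean of the members most closely, among those well above background on every array of the experiment, were LOC630499, Igtp, H2-T10, Iigp2 and LOC56628 in the chemotherapy arrays (Pearson r from 0.97 to 0.98, 16 arrays, 13038 names compared). Igtp and Iigp2 are interferon-inducible GTPases and H2-T10 is a class I heavy chain. In the progression arrays they were NAP000023-001, H2-Q1, Parp12, Mpa2l and LOC630499 (r from 0.88 to 0.92, 22 arrays, 13532 names compared). LOC630499 was the only name on both lists.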

How the data were processed

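RNA of GFP+ sorted cells was hybridised by the authors to 38 Agilent 2-colour arrays, with the sample in Cy5 and a Universal mouse reference in Cy3 and no dye swaps. Per the file headers, Agilent Feature Extraction 10.7 gave the deposited spot intensities. The deposited matrix of log2 ratios, which the authors made with limma, served as an alternative; its columns correlated with the values used here at 0.966 to 0.999.

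From the mean and background intensities, limma 3.58.1 in R 4.3.3 gave log2 ratios (normexp with offset 50, loess within arrays, quantile between the arrays of an experiment). Control spots and spots flagged as outliers were left out. The probe with the highest mean signal stood for its gene name. Each experiment was fitted with all its groups and no covariates, with Benjamini-Hochberg adjustment over 27962 names. Genes were named by a fixed rule: all members, and from the pathway lists the called genes and those with the largest change. The number of arrays limits the precision. The fits were tested on simulated data. The members and lists were chosen with earlier results of these data known. Alternatives covered background correction, normalization, probe choice, slide, replicate number, array weights, thresholds and samples left out. One regulator of the pathway lists is not reported here, and the counts of that list are left out.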

Additional observations from a re-analysis of the deposited data

Results flagged for a closer look

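Among 70 sets of 4 to 6 samples (each member in each group), 2 held a sample whose gap to the others passed Dixon's 95% critical value, where chance alone gives about 1 in 20. Psme1 read 0.168 in untreated replicate 5, and 0.614 to 0.844 in the other 5 untreated tumors. Psmb10 read -0.786 in metastases replicate 2, and 0.328 to 0.375 in the other 4 metastases.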

How the results depend on the processing

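No called change of a member turned its direction under any alternative that was run. Of 389 called values under other settings 31 lost the call, and of 223 with 1 sample left out 25 did; of 1281 and 757 uncalled values 58 and 17 gained it. The number of members called between relapsed and residual tumors (4) was 7 with Aquantile, with no between-array normalization and in the deposited matrix, 2 by a t-test without moderation, and 1 with all 38 arrays together or slide as a fixed block. Between residual and untreated tumors (0) it was 1 with Aquantile, with no between-array normalization, in the deposited matrix and with no fold threshold. For carcinoma against adenoma (1) it was 3 with Aquantile, no between-array normalization, the deposited matrix, all 38 arrays together and the replicate block, 5 with array weights, and 2 with only the 2 groups, by the t-test and with no fold threshold. For disseminated cells against adenoma (2) it was 4 with all 38 arrays and with no fold threshold, 1 by the t-test and 0 at an adjusted p under 0.01. For disseminated cells against carcinoma (1) it was 2 with Aquantile, no between-array normalization, the deposited matrix, all 38 arrays, dim probes left out and the replicate block, 3 with array weights, and 0 with median centring, only the 2 groups, the t-test and an adjusted p under 0.01. For metastases it was 3 against adenoma (5) with the mean of a gene's probes and at an adjusted p under 0.01, 3 against carcinoma (5) at an adjusted p under 0.01, and 1 against disseminated cells (3) by the t-test. The causes were not tested. The median log2 change of the members from adenoma to metastases, 0.60, was -0.18 with Aquantile and with no between-array normalization, where B2m (-0.26) and H2-K1 (-0.09) changed sign uncalled, and that from untreated to relapsed tumors, -0.49, was -0.97 with slide as a fixed block.

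Leaving out each sample in turn gave 0 to 1 members called for residual against untreated, 1 to 2 for carcinoma against adenoma, 1 to 4 for disseminated against adenoma, 3 to 5 for metastases against adenoma and 0 to 2 for disseminated against carcinoma. Samples with the same replicate number did not deviate together in every pair of any comparison (correlations -0.415 to 0.426), so the numbers were not taken as pairs; the replicate block gave 3 members called for relapsed against residual tumors, Tap1 being lost at a limma adjusted p of 0.051. A fixed slide block was not run where no slide joins the groups (carcinoma or metastases against adenoma, and disseminated cells against carcinoma or metastases).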
